A study of Rattus norvegicus with 12 samples.

Results

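The proteasome subunit genes are the 36 rows of the deposited count table whose symbol is Psma, Psmb, Psmc or Psmd followed only by digits, without the inducible subunits Psmb8, Psmb9 and Psmb10. They are 36 of 17419 rows, with 8 Psma, 8 Psmb, 6 Psmc and 14 Psmd genes. The rule goes by name and not by any measured value, but was set with earlier results of these data known. RNA was measured in primary cultures enriched for cardiomyocytes, the contractile cells of the heart, from the ventricles of newborn (P0) wildtype Sprague-Dawley rats. Cultures were collected 48 h after lipid transfection with small interfering RNA (siRNA), which lowers the transcript it matches. Control cultures received 20 nM siScramble, a scrambled siRNA. The Btg1 knockdown received 10 nM siBtg1 with 10 nM siScramble, and the Btg2 knockdown 10 nM siBtg2 with 10 nM siScramble. The double knockdown received 10 nM siBtg1 with 10 nM siBtg2 and no siScramble. In what follows, "with siBtg1" and "with siBtg2" mean the single knockdowns. Btg1 and Btg2 encode related proteins that restrain proliferation and bind the deadenylase complex that shortens messenger RNA tails. Each of the 4 groups had 3 libraries. The labels do not say whether these came from different wells, cultures or rats, and the p-values therefore rest on a spread between libraries that may be technical.

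The proteasome is the barrel-shaped protease that degrades proteins tagged with ubiquitin. Its core particle stacks outer rings of alpha subunits (Psma genes), which gate the barrel, on inner rings of beta subunits (Psmb genes), some of which carry the peptidase sites. The regulatory particle caps the core: its ATPases (Psmc genes) unfold and thread the substrate, and its other subunits (Psmd genes) bind and remove ubiquitin and hold the lid together. In heart muscle it turns over sarcomere and short-lived regulatory proteins, and transcription factors of the NRF family raise its subunit genes together when its capacity falls short.

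Library totals ran from 24434925 counts (Btg2 knockdown replicate 2) to 46206581. The targeted transcripts followed the labels: Btg1 was at 283 ± 2.19 CPM (counts scaled to the library total, adjusted by edgeR's TMM factors) in scramble, 66.2 ± 4.07 with siBtg1, 299 ± 4.70 with siBtg2 and 51.7 ± 2.41 with both siRNAs (SD, n = 3 each). Btg2 was at 132 to 144 CPM in scramble, 170 to 179 with siBtg1, 82.8 to 87.4 with siBtg2 and 67.6 to 69.6 with both. All 9 cardiomyocyte markers listed passed the filter on low counts, and their summed level was 27774 to 34675 CPM over the libraries. Fibroblast markers summed to 12425 to 16144 CPM, while macrophage markers summed to 24.6 to 38.9 CPM and erythroid markers to 1.07 to 2.07 CPM. In bulk RNA, fewer cells of a type and less RNA per cell cannot be told apart.

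Nearly all of the subunit genes had abundant RNA, and 2 had almost none. Levels between genes are compared in the deposited TPM, which divide counts by gene length. Of the 36 genes, 34 had a mean over the 12 libraries above the median of all tested genes (23.9 TPM), and 26 were above their 90th percentile (166 TPM). Together the subunit genes took 0.855 to 0.933% of all TPM in a library. Psma8, the alpha subunit of the testis proteasome, had 0 to 3 counts per library and was the 1 member removed by the filter. Psmb11, the beta subunit of the thymus proteasome, had 2 to 19 counts per library and passed the filter, so 35 members were tested. It was called in none of the comparisons.

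Within each structural class the levels were uneven. Among the alpha genes the mean TPM ran from 117 for Psma3 to 464 for Psma7, leaving aside Psma8. Psma3 is uncertain as a level: the table also lists Psma3l, which RefSeq now gives as a synonym of Psma3. Psma3l averaged 138 TPM (60.3 ± 2.36 CPM in scramble, SD, n = 3), so reads of 1 gene may be divided between the rows. Among the beta genes Psmb1 was highest at 624 and Psmb6 lowest at 113 TPM, leaving aside Psmb11. The peptidase subunits stood at different levels: Psmb5, the chymotrypsin-like subunit, averaged 424 TPM, Psmb7, the trypsin-like subunit, 406 TPM, and Psmb6, the caspase-like subunit, 113 TPM. Taken row by row, the ATPase genes were the most even class, from 126 (Psmc6) to 329 TPM (Psmc3), a ratio of 2.62. The alpha ratio of 3.96 rests on the uncertain level of Psma3. The next lowest alpha gene, Psma5, averaged 266 TPM. Which class was the most even is therefore uncertain. The Psmd genes spanned 29.1 (Psmd10) to 301 TPM (Psmd8). Its low end held the assembly chaperones, which help build the regulatory particle and leave it before it is complete: Psmd5 averaged 59.9, Psmd9 62.6 and Psmd10 29.1 TPM. Psmd11, which clamps the lid to the core, was the lowest of the structural Psmd subunits at 94.9 TPM.

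**Figure D1:**
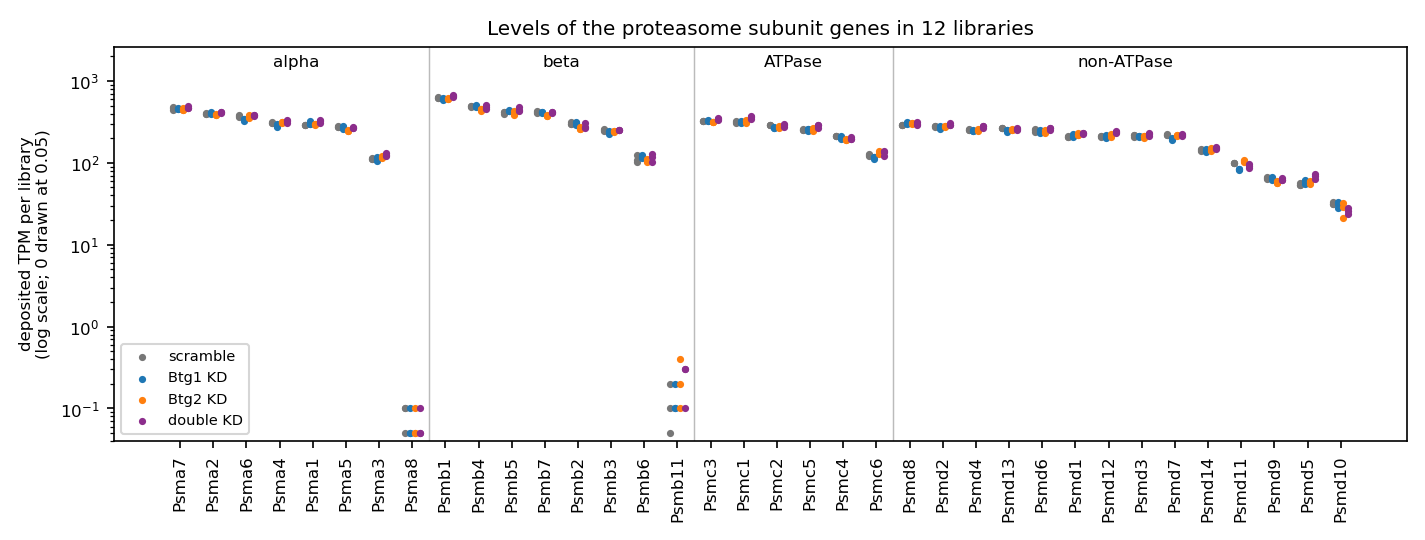
Deposited TPM (log axis) of each of the 36 subunit genes in the 12 libraries, coloured by siRNA group and ordered by mean level within each class; a TPM of 0 is drawn at the bottom of the axis. Levels of 1 gene differ far less between groups than levels of different genes, from 29.1 TPM for Psmd10 to 624 TPM for Psmb1, with Psma8 and Psmb11 near 0.

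Replicate libraries agreed closely for these genes, which sets how small a change could be seen. The coefficient of variation of CPM within groups had a median of 2.33% over the 35 tested members, against 5.31% over all 12535 tested genes. Among the 9459 genes at least as high in CPM as Psmd10 (mean 6.32 CPM) it was 4.39%. Neither set was matched in level to the members, of which 26 lay above the 90th percentile in TPM. Over the 7 comparisons made, 66 member calls passed edgeR's quasi-likelihood test at an adjusted p of 0.05, and 2 of those reached a 1.2-fold change: Psmd5 with both siRNAs against scramble, and Psmd11 between the single knockdowns. Calls of at least that size made up 22.0, 20.7 and 15.0% of all tested genes in the double, Btg1 and Btg2 knockdowns against scramble, 10.1 and 16.9% in the double against the Btg1 and the Btg2 knockdown, 23.2% between the single knockdowns and 11.3% in the interaction. Of all tested genes, 38.9, 36.5 and 30.0% were called in either direction in the double, Btg1 and Btg2 knockdowns against scramble. The double against the Btg1 knockdown gave 22.3%, against the Btg2 knockdown 32.2%, the single knockdowns against each other 40.8% and the interaction 15.1%. Across the comparisons 27 members were called at least once and 8 never: Psma7, Psmb6, Psmb11, Psmd3, Psmd6, Psmd8, Psmd10 and Psmd14, the last encoding the deubiquitinase of the lid.

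Promoter sequence was examined because proteasome genes are known to share regulatory elements. RefSeq windows of the rat assembly GRCr8 were found for 31 of the 36 genes, and the 250 bases before the start of transcription were searched on both strands. The antioxidant response element bound by NRF factors was spelled TGACNNAGC or TGAGNNAGC, and 8 of 31 member windows (25.8%) held it, against 6.83% of all 33469 windows. The looser spelling TGACNNNGC or TGAGNNNGC, which includes the strict one, was in 12 member windows (38.7%) and 22.8% of all windows. The ETS core CCGGAAG was in 10 (32.3%, against 7.27%), CCAAT in 16 (51.6%, against 34.0%), the GC box GGGCGG in 22 (71.0%, against 30.5%) and the heat shock spelling GAANNTTC in 2 (6.45%, against 7.23%). Of the 10284 windows of tested genes, 6.83% held the strict and 26.6% the loose antioxidant element, 14.4% the ETS core, 34.9% CCAAT, 57.8% the GC box and 4.67% the heat shock spelling. The heat shock share of members thus lay above that of tested genes and below that of all windows. A match is a description of letters and not evidence of a bound site.

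The following windows are shown because they precede genes called in the comparisons and differ in the element they hold. Capitals mark the strict antioxidant element in the first 3 (Psmd5, chr3:38548491-38548740, minus strand; Psmb2, chr5:144254808-144255057, plus strand; Psma5, chr2:198584255-198584504, plus strand) and the ETS core in the last 2 (Psmd11, chr10:65932093-65932342, plus strand; Psmd4, chr2:185297202-185297451, minus strand). All are RefSeq GRCr8, written along the gene's own strand, and end at the base before the start.
Psmd5: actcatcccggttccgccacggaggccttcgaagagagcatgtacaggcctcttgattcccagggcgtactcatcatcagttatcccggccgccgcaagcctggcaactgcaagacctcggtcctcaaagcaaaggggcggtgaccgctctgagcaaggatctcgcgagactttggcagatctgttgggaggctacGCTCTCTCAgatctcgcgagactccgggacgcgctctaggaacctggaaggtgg
Psmb2: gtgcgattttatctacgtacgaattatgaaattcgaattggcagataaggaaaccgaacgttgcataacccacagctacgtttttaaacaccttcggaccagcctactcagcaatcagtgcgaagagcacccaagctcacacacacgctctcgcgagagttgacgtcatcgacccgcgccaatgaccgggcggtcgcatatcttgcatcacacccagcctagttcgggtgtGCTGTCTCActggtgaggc
Psma5: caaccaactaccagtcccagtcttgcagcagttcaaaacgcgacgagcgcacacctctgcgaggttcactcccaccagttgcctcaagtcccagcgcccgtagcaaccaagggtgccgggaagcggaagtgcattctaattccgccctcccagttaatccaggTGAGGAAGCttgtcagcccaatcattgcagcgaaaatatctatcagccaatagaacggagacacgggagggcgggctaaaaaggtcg
Psmd11: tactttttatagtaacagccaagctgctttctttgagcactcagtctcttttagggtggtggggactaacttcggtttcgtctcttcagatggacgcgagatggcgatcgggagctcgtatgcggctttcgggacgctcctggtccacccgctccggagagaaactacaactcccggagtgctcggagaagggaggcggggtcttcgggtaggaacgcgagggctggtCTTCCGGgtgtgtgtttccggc
Psmd4: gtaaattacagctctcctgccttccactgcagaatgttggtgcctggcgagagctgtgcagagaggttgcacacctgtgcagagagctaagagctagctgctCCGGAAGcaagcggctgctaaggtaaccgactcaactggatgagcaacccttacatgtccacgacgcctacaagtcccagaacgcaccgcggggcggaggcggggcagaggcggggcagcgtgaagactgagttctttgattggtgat
The capitals begin 54, 19 and 87 bases before the start in Psmd5, Psmb2 and Psma5, and 22 and 148 bases before it in Psmd11 and Psmd4. In Psmd5, Psmb2 and Psmd11 the element reads on the opposite strand.

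With both siRNAs, called changes were small and lay in core and regulatory particle, and the share that rose was near that of all tested genes. Of 35 tested members 9 rose and 2 fell against scramble, where 19.4% of all tested genes rose and 19.5% fell. The 9 were Psma1 and Psma3 of the alpha ring, the peptidase subunit Psmb5, the ATPases Psmc1 and Psmc5, the scaffold subunit Psmd1, the ubiquitin receptor Psmd4, the lid subunit Psmd12 and the assembly chaperone Psmd5. The 2 that fell were Psmb2 and Psmd11. The members' median log2 change was 0.04, beside -0.01 over all tested genes. The share of members that rose (25.7%) lay near the background share, while the share that fell (5.71%) was below it; neither is a test of the list. Wholly above scramble lay 12 members and wholly below it 5, beside 23.0 and 23.7% of all tested genes.

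Psmd5 had the largest change among the called members. It stood at 56.0, 55.6 and 59.1 CPM in the scramble libraries, at 62.6, 62.3 and 58.3 with siBtg1, at 57.5, 61.5 and 60.7 with siBtg2 and at 73.4, 70.4 and 65.5 with both siRNAs. All 3 double knockdown libraries lay above the other 9. The log2 change from scramble was 0.29 ± 0.05 (SE, edgeR adjusted p = 6.8e-05), or 22.6%. Psmd5 is the chaperone whose promoter window, printed above, holds the antioxidant element.

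Psmd12, a scaffold of the lid, had 157, 158 and 160 CPM in scramble, 162, 156 and 154 with siBtg1, 156, 167 and 167 with siBtg2 and 178, 182 and 177 with both siRNAs. The double knockdown again lay above all other libraries, with a log2 change from scramble of 0.17 ± 0.04 (SE, edgeR adjusted p = 8.6e-04). The ATPase gene Psmc1 had 251, 239 and 254 CPM in scramble, 249, 245 and 252 with siBtg1, 241, 256 and 258 with siBtg2, and 277, 286 and 267 with both. Here too no single knockdown or scramble library reached the double knockdown range, and the log2 change was 0.16 ± 0.04 (SE, edgeR adjusted p = 0.00225). Psmd4, which binds ubiquitin chains, had 174, 169 and 169 CPM in scramble, 165, 167 and 169 with siBtg1, 168, 172 and 170 with siBtg2, and 189, 188 and 183 with both. Its log2 change was 0.13 ± 0.03 (SE, edgeR adjusted p = 0.00517).

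The remaining rises were of 8.80 to 10.6%. The alpha genes Psma3 and Psma1 changed by 0.15 ± 0.04 and 0.13 ± 0.04, Psmb5 by 0.14 ± 0.05, Psmd1 by 0.12 ± 0.03 and Psmc5 by 0.12 ± 0.04 on the log2 scale (SE). Psma3l, the row that may share reads with Psma3, changed by 0.14 ± 0.05 (SE, edgeR adjusted p = 0.0184). The other peptidase subunits were not called: Psmb6 had a log2 change of 0.06 ± 0.08 and Psmb7 of -0.01 ± 0.04 (SE). Psmd11 fell from 168 ± 1.19 to 155 ± 5.56 CPM (SD, n = 3 each), a log2 change of -0.11 ± 0.04 (SE, edgeR adjusted p = 0.0149) with no overlap between the groups. Psmb2 had 119, 126 and 120 CPM in scramble and 107, 105 and 123 with both siRNAs, so replicate 3 lay within the scramble range, and its log2 change of -0.13 ± 0.05 passed narrowly (SE, edgeR adjusted p = 0.0499). The low assembly gene Psmd10 had the largest estimate of any member other than Psmb11, -0.31 ± 0.13 (SE), and did not pass (edgeR adjusted p = 0.0554). The calls for Psma1, Psma3, Psmc1, Psmd1, Psmd4, Psmd5 and Psmd12 held under all 15 alternatives run. That for Psmb2 ended in 11 of them (edgeR, DESeq2 or limma adjusted p 0.0617 to 0.222), among them without any 1 of the scramble replicates or of replicates 1 and 2 of the double knockdown, and those for Psmb5 (without scramble replicate 3 or double knockdown replicate 3, adjusted p = 0.0836 and 0.0953), Psmc5 (without double knockdown replicate 2, 0.0559) and Psmd11 (without double knockdown replicate 3, 0.0601) each depended on a library. Psmd11 also lost its call by limma (0.0687 and 0.0691) and with only the groups compared in the edgeR fit (0.0521).

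**Figure D2:**
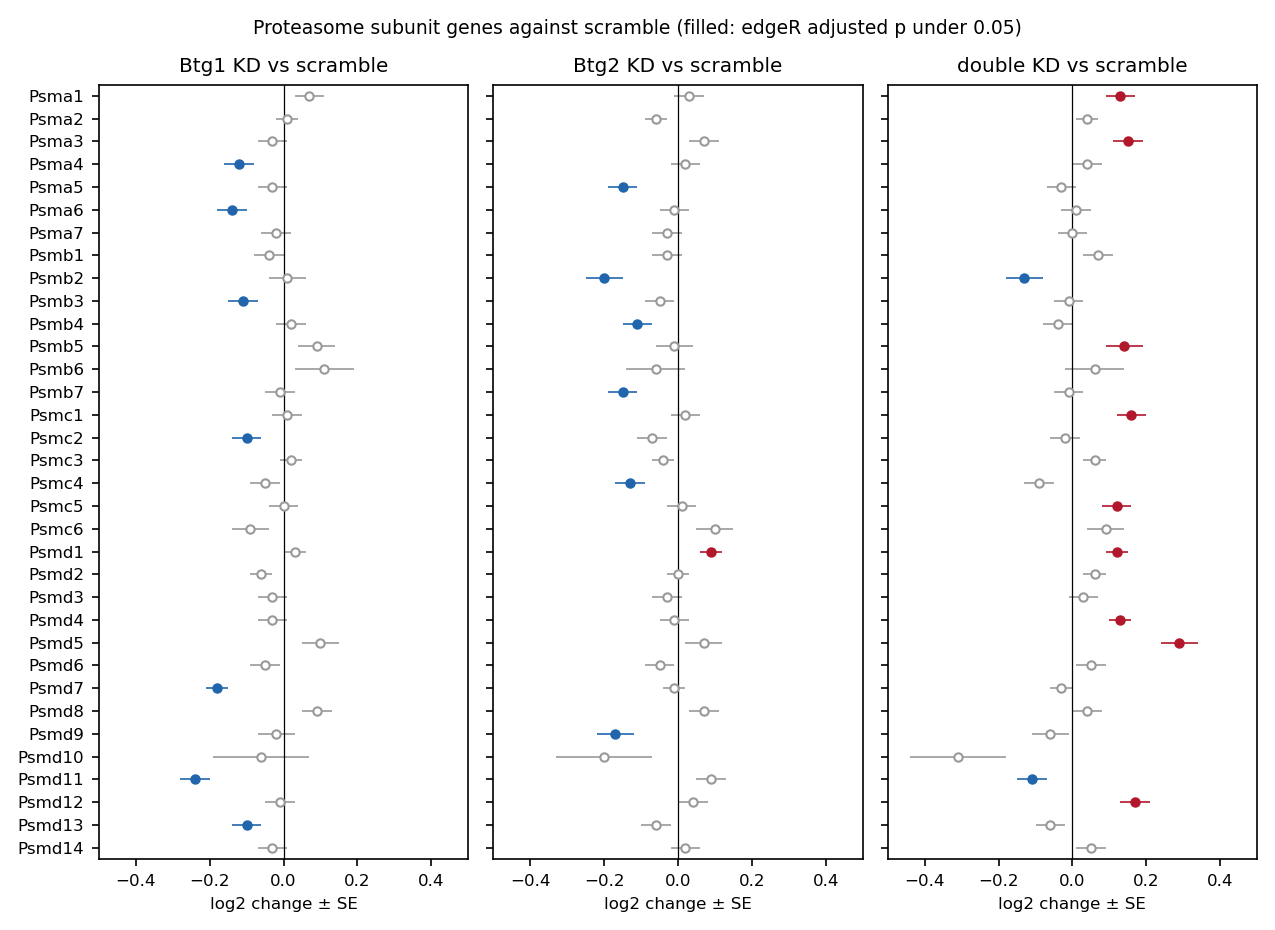
Log2 change ± SE from scramble of 34 subunit genes in the Btg1, Btg2 and double knockdowns, from edgeR with all 12 libraries in the fit; filled points passed an adjusted p of 0.05 (red higher, blue lower), and Psmb11 is left out for its few counts. Blue points are 7 with siBtg1 (20.0% of members, beside 17.8% of all tested genes) and 6 with siBtg2 (17.1%, beside 13.6%), and red points are 9 with both (25.7%, beside 19.4%).

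With the Btg1 siRNA alone, called changes were falls. Of 35 tested members 7 fell and 0 rose, beside 17.8% of all tested genes that fell and 18.7% that rose. By edgeR, 8 members had an unadjusted p under 0.05, a cut at which the share of all tested genes was not counted. DESeq2 and limma also called 0 members higher. With only the scramble and Btg1 knockdown libraries in the edgeR fit 2 were higher, and without Btg1 knockdown replicate 1, 1 was higher. The members that fell were the lid subunits Psmd11, Psmd7 and Psmd13, the alpha genes Psma6 and Psma4, the beta gene Psmb3 and the ATPase Psmc2. The median log2 change of the 35 was -0.03.

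Psmd11 fell furthest. It was at 168, 168 and 166 CPM in the scramble libraries, 141, 143 and 141 with siBtg1, 178, 179 and 180 with siBtg2 and 160, 156 and 149 with both siRNAs. The 4 groups did not overlap: the order was Btg2 knockdown, scramble, double knockdown and Btg1 knockdown. Its log2 change with siBtg1 alone was -0.24 ± 0.04 (SE, edgeR adjusted p = 1.2e-05), and with siBtg2 alone 0.09 ± 0.04, which did not pass (edgeR adjusted p = 0.0531). Psmd7, the partner of the deubiquitinase Psmd14 in the lid, had 178, 176 and 178 CPM in scramble, 159, 156 and 155 with siBtg1, 178, 177 and 175 with siBtg2 and 175, 176 and 170 with both siRNAs. The siBtg1 libraries were the lowest 3 of the 12, with a log2 change of -0.18 ± 0.03 (SE, edgeR adjusted p = 2.7e-04). Psmd14 itself had 107, 104 and 106 CPM in scramble and 107, 102 and 101 with siBtg1 and was not called.

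The other falls were Psma6 (-0.14 ± 0.04), Psma4 (-0.12 ± 0.04), Psmb3 (-0.11 ± 0.04), Psmc2 and Psmd13 (each -0.10 ± 0.04, log2 ± SE), with no overlap between the Btg1 knockdown and scramble libraries in any of them. Over all members, 10 lay wholly below and 4 wholly above scramble, beside 24.8% and 25.3% of all tested genes. The calls for Psmd11 and Psmd7 held in all 15 alternatives, but the count of 7 was 3 when scramble replicate 1 or Btg1 knockdown replicate 3 was left out. It was 4 without scramble replicate 2 or 3, without Btg1 knockdown replicate 1, or with no filter. In those settings the adjusted p of Psma4, Psma6, Psmb3, Psmc2 and Psmd13, where the call was lost, ran from 0.0516 to 0.149.

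With the Btg2 siRNA alone, called changes were mostly falls. Of 35 tested members 6 fell and 1 rose, beside 13.6% and 16.4% of all tested genes. The falls were the beta genes Psmb2, Psmb7 and Psmb4, the alpha gene Psma5, the ATPase Psmc4 and the assembly chaperone Psmd9, and the rise was Psmd1. The median log2 change of the 35 was -0.01. Wholly above scramble lay 4 members and wholly below it 9, beside 23.5 and 22.2% of all tested genes.

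Psmb2 had 119, 126 and 120 CPM in scramble, 123, 125 and 119 with siBtg1, and 109, 107 and 101 with siBtg2. The Btg2 knockdown libraries lay below both, and the log2 change from scramble was -0.20 ± 0.05 (SE, edgeR adjusted p = 0.00378). The trypsin-like subunit Psmb7 had 203, 204 and 209 CPM in scramble, 200, 207 and 203 with siBtg1, 183, 189 and 184 with siBtg2, and 199, 205 and 208 with both. Only the Btg2 knockdown stood apart, with a log2 change of -0.15 ± 0.04 (SE, edgeR adjusted p = 0.00297). Psma5 had 144, 143 and 139 CPM in scramble, 141, 141 and 135 with siBtg1, 126, 133 and 126 with siBtg2, and 139, 138 and 139 with both, and again the siBtg2 libraries were the lowest (log2 change -0.15 ± 0.04, SE, edgeR adjusted p = 0.00471).

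Psmd9 changed by -0.17 ± 0.05, Psmc4 by -0.13 ± 0.04 and Psmb4 by -0.11 ± 0.04 (log2 ± SE). Psmd1 rose by 0.09 ± 0.03, from 326 ± 1.59 to 347 ± 4.83 CPM (SD, n = 3 each). The falls of Psma5, Psmb2, Psmb7 and Psmc4 held in all 15 alternatives. The rise of Psmd1 ended in 11 of them, without any 1 of the 6 libraries and with library size as the only scaling among others (edgeR or limma adjusted p 0.0536 to 0.254). Psmb4 lost its call without any 1 scramble replicate or Btg2 knockdown replicate 2 or 3 (edgeR adjusted p 0.068 to 0.105), and Psmd9 without scramble replicate 1 (edgeR adjusted p = 0.055).

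**Figure D3:**
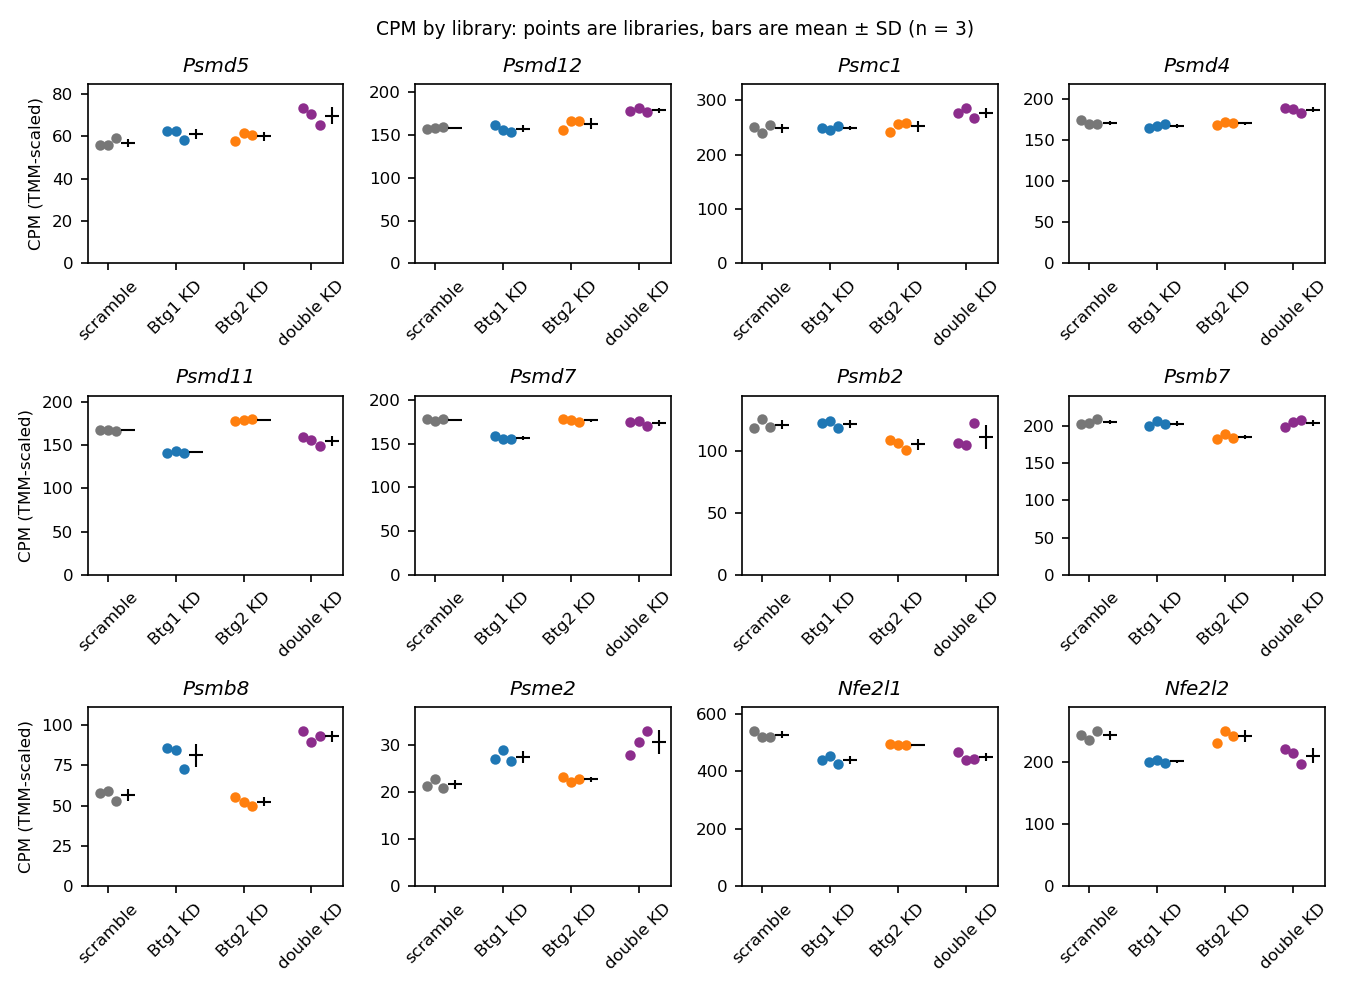
TMM-scaled CPM in each library (points) with the group mean ± SD (n = 3) for 8 subunit genes and for Psmb8, Psme2, Nfe2l1 and Nfe2l2. Psmd5, Psmd12, Psmc1 and Psmd4 are highest with both siRNAs, Psmd11 and Psmd7 lowest with siBtg1, and Psmb7 lowest with siBtg2.

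The single knockdowns were also set against each other. Psmd11 was 20.9% lower with siBtg1 than with siBtg2, a log2 change of -0.34 ± 0.04 (SE, edgeR adjusted p = 1.1e-07). Of 35 members 5 were higher with siBtg1 (Psmb2, Psmd9, Psmb7, Psmb4 and Psma5) and 5 lower (Psmd11, Psmc6, Psmd7, Psma4 and Psma6), beside 20.3% and 20.6% of all tested genes. Without overlap, 10 were higher and 8 lower, beside 25.7 and 26.1%. By class, 3 of 8 tested beta genes were higher and 0 lower, and among the 7 tested alpha genes 1 was higher and 2 lower. Psmb2 differed by 0.21 ± 0.05 and Psmc6 by -0.20 ± 0.05 (log2 ± SE). Psma5, Psma6 and Psmd9 each lost the call without certain single libraries: Psma5 without Btg1 knockdown replicate 1 or 2 or Btg2 knockdown replicate 1 or 3, Psma6 without Btg1 knockdown replicate 3 or Btg2 knockdown replicate 2, and Psmd9 without Btg1 knockdown replicate 3 or Btg2 knockdown replicate 1 (edgeR adjusted p 0.0564 to 0.102). With library size as the only scaling 9 members were higher.

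Set against either single knockdown, the double knockdown had higher levels of many subunit genes. Against the Btg1 knockdown, which asks what siBtg2 adds, 14 of 35 members were higher and 0 lower, beside 10.3% of all tested genes that were higher and 11.9% lower. By edgeR 19 had an unadjusted p under 0.05, a cut at which the share of all tested genes was not counted. Wholly below the Btg1 knockdown lay 0 members, beside 17.4% of all tested genes. DESeq2 and limma likewise called 0 lower, and 1 was lower without double knockdown replicate 3. The median log2 change was 0.08, beside a value within 0.01 of 0 over all tested genes. The members called were 3 alpha genes (Psma3, Psma4, Psma6), the beta gene Psmb1, 3 ATPases (Psmc1, Psmc5, Psmc6) and 7 Psmd genes (Psmd1, Psmd2, Psmd4, Psmd5, Psmd7, Psmd11, Psmd12). Their log2 changes ran from 0.10 (Psmb1) to 0.19 (Psmd5). No overlap with the Btg1 knockdown, with the double knockdown higher, was found for 19 members, beside 17.2% of all tested genes.

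Against the Btg2 knockdown, which asks what siBtg1 adds, 12 members were higher and 1 lower, beside 15.2% and 17.0% of all tested genes. Psmd5 (0.22 ± 0.05), Psmb5 (0.16 ± 0.05), Psmb7 (0.14 ± 0.04) and Psmc1 (0.14 ± 0.04, log2 ± SE) led the rises, and Psmd11 was the member that fell (-0.21 ± 0.04, SE, edgeR adjusted p = 9.7e-05). The others that rose were Psma1, Psma2, Psma5, Psmb1, Psmc3, Psmc5, Psmd4 and Psmd12. Without overlap, 17 were higher and 1 lower, beside 20.5 and 21.6% of all tested genes. Both comparisons use the same 3 double knockdown libraries, so they are not independent. Btg1 itself was lower in the double than in the Btg1 knockdown (log2 change -0.36 ± 0.05, SE). The comparison with the Btg1 knockdown therefore does not vary Btg2 alone. Btg2 stood at 68.7 ± 0.983 CPM in the double and 85.2 ± 2.31 CPM in the Btg2 knockdown (SD, n = 3 each), without overlap. The comparison with the Btg2 knockdown therefore does not vary Btg1 alone either. The count of 14 was 8 without double knockdown replicate 1 or Btg1 knockdown replicate 3 and 9 with only those groups in the fit, and the count of 12 was 4 without Btg2 knockdown replicate 1 and 6 without its replicate 3 or with only those groups in the fit.

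As a summed level, the 36 genes summed to 8993, 8938 and 8945 TPM in the scramble libraries, 8978, 8806 and 8555 with siBtg1, 8679, 8632 and 8842 with siBtg2 and 9329, 9288 and 9221 with both siRNAs. The double knockdown lay above all 9 other libraries, at 103.6% of scramble on average. The Btg1 knockdown overlapped scramble (98.00%), and the Btg2 knockdown lay below it (97.31%). By class, the double knockdown was at 103.3% of scramble for the alpha, 102.2% for the beta, 105.1% for the ATPase and 104.4% for the Psmd genes. The Btg2 knockdown was at 93.94% for the beta genes, with all 3 libraries (2487, 2412 and 2442 TPM) below the 9 others, and at 99.96% for the Psmd genes. No test is given for these sums, since their genes were chosen as a group.

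**Figure D4:**
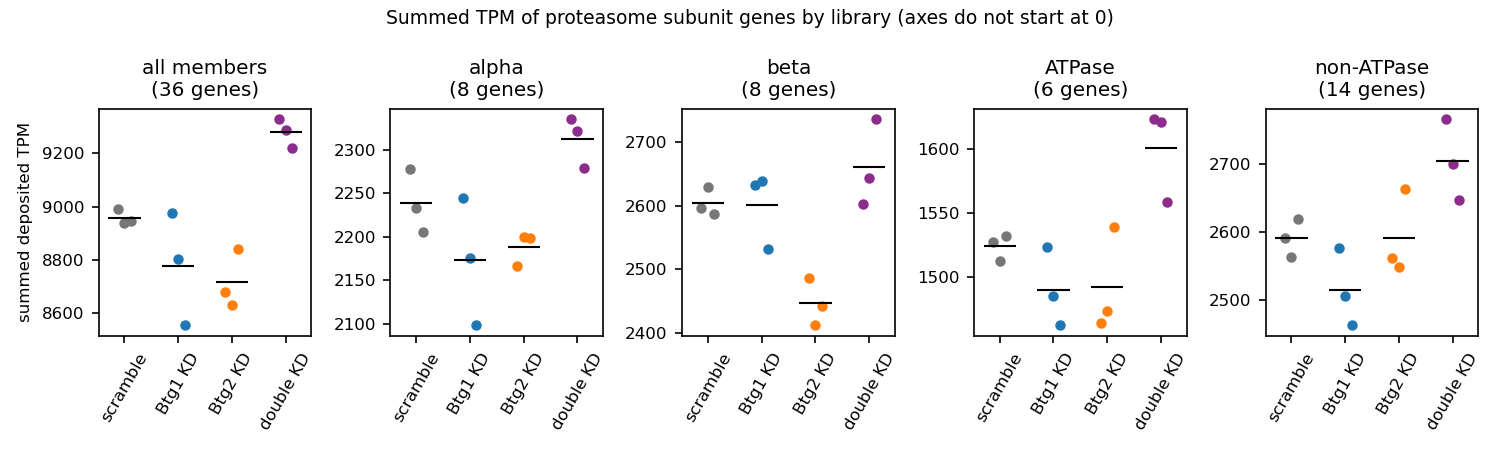
Deposited TPM summed over the 36 subunit genes and over each class, in each library (points) with the group mean (line); the axes do not start at 0. The double knockdown libraries sum to 9221 to 9329 TPM, above the 8555 to 8993 TPM of the other 9, and the beta genes are lowest with siBtg2.

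The departure of the double knockdown from the sum of the single effects was tested gene by gene as an interaction on the log2 scale. Btg2 itself did not fall equally. It changed by -0.70 ± 0.04 with siBtg2 against scramble and by -1.35 ± 0.04 with both siRNAs against the Btg1 knockdown (log2 ± SE). The bearing of this on the interaction was not tested. Psmd4 (0.17 ± 0.05), Psmd7 (0.16 ± 0.05), Psmc2 (0.15 ± 0.05) and Psmb7 (0.15 ± 0.05, log2 ± SE) exceeded the sum, with edgeR adjusted p-values of 0.025, 0.0344, 0.0452 and 0.0472. Thus 4 of 35 members were above the sum and 0 below, beside 4.99% and 10.1% of all tested genes. By edgeR 16 members had an unadjusted p under 0.05, a cut at which the share of all tested genes was not counted. DESeq2 and limma too called 0 below the sum. The median estimate of the 35 members was 0.10, beside 0.01 over all tested genes, and these estimates all rest on the same 12 libraries. For Psmd7 the single effects were -0.18 and -0.01, and the double knockdown stood at -0.03 from scramble. For Psmb7 they were -0.01 and -0.15, and the double knockdown stood at -0.01. In the double knockdown neither gene was called against scramble. Each call depended on libraries: the count of 4 was 0 without scramble replicate 1 or Btg2 knockdown replicate 1 or 3. It was 1 without scramble replicate 3, double knockdown replicate 2 or Btg1 knockdown replicate 1 or 3, and with no filter, and 2 without scramble replicate 2, double knockdown replicate 1 or Btg2 knockdown replicate 2. DESeq2 gave 7 and library size alone 13.

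**Figure D5:**
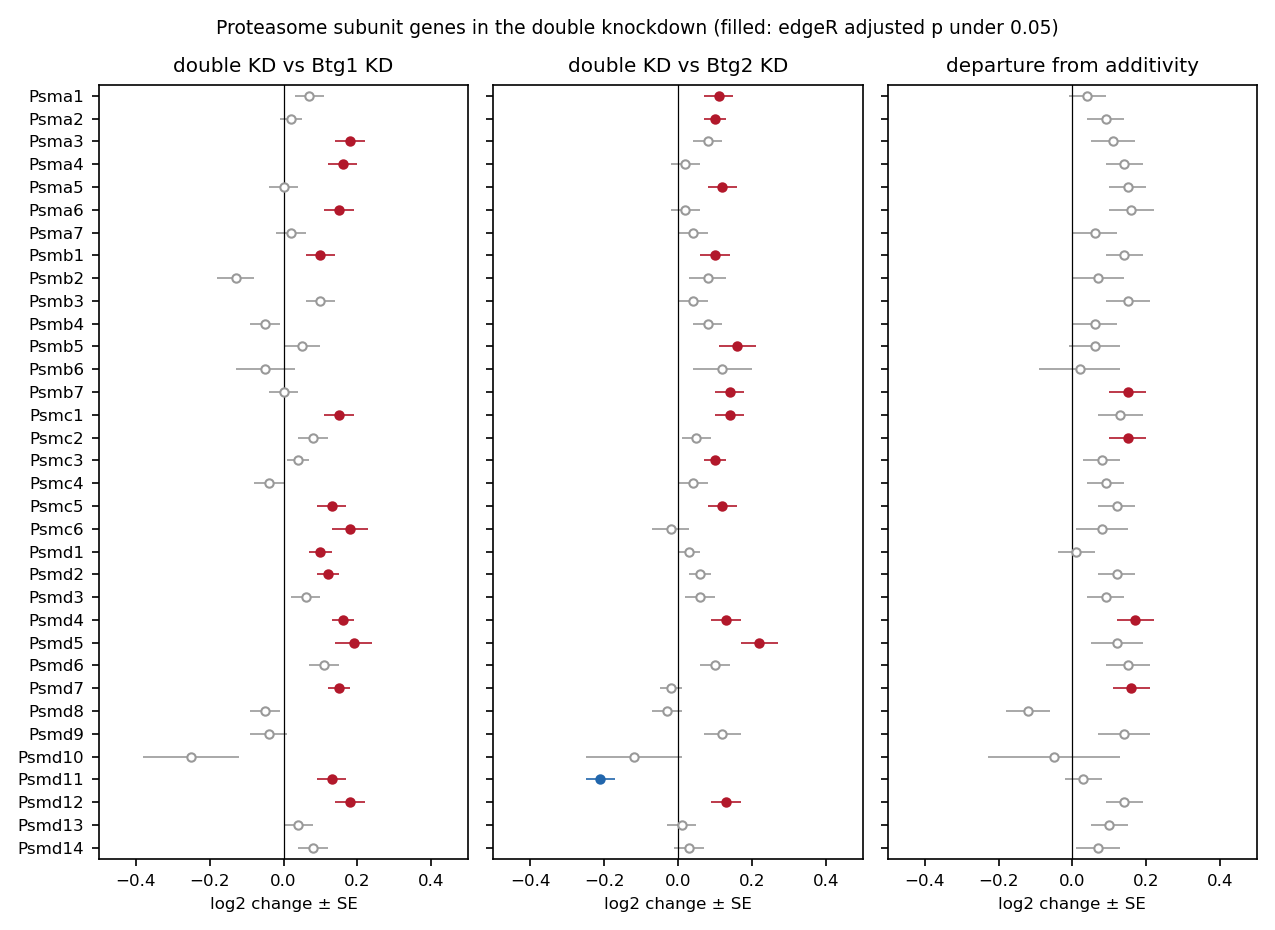
Log2 change ± SE of 34 subunit genes with both siRNAs against the Btg1 knockdown (left) and the Btg2 knockdown (middle), and the departure from additive effects (right); filled points passed an edgeR adjusted p of 0.05, and Psmb11 is left out for its few counts. Red points number 14, 12 and 4, beside 10.3, 15.2 and 4.99% of all tested genes, and blue points 0, 1 and 0, beside 11.9, 17.0 and 10.1%; leaving out 1 library took the red counts as low as 8, 4 and 0.

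The calls are set beside the promoter elements here as counts, with no test. Of the 8 members with the strict antioxidant element 1 rose (Psmd5) and 1 fell (Psmb2) with both siRNAs, 0 rose and 3 fell with siBtg1, and 0 rose and 2 fell (Psmb2 and Psma5) with siBtg2. The 22 tested members whose window lacked it gave 7 rises and 1 fall, 0 and 4, and 1 and 4. Of all tested genes 19.4% rose and 19.5% fell with both siRNAs, 18.7 and 17.8% with siBtg1, and 16.4 and 13.6% with siBtg2. Genes of NRF control were themselves called. Nfe2l1, which encodes the NRF factor that raises proteasome genes when the protease is inhibited, fell from 527 ± 11.9 CPM in scramble to 440 ± 15.1 with siBtg1 and 450 ± 13.6 with both siRNAs (SD, n = 3 each). Its log2 changes were -0.26 ± 0.04 and -0.23 ± 0.04 (SE, edgeR adjusted p = 6.3e-06 and 3.3e-05), and -0.10 ± 0.04 with siBtg2, which did not pass (edgeR adjusted p = 0.0516). Nfe2l2, which encodes the NRF factor of the oxidative stress response, fell from 243 ± 7.26 to 201 ± 2.26 and 210 ± 12.7 CPM in the Btg1 and double knockdowns (SD, n = 3 each). Keap1, whose product marks that factor for degradation, fell too, by 0.42 and 0.27 on the log2 scale. Of 10 listed control genes 2 rose and 4 fell with siBtg1, 3 rose and 0 fell with siBtg2, and 1 rose and 4 fell with both siRNAs. The partner genes of NRF factors differed, with Mafk higher with siBtg1 (0.48 ± 0.04), siBtg2 (0.30 ± 0.04) and both (0.21 ± 0.04), and Maff lower in the Btg1 and double knockdowns (-0.34 ± 0.08 and -0.38 ± 0.08, log2 ± SE). Bach1, a repressor at the same element, rose in both single knockdowns (0.29 ± 0.06 and 0.33 ± 0.06) and stood at 0.02 ± 0.06 with both siRNAs. Ddi2 and Ngly1, which process the Nfe2l1 product, were not called against scramble, nor was Nfe2l3. Mafg rose with siBtg2 alone (0.22 ± 0.05).

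Among the 3 inducible subunits, 2 rose with siBtg1 and 3 with both siRNAs, and 1 fell with siBtg2. In the Btg1, Btg2 and double knockdowns 18.7, 16.4 and 19.4% of all tested genes rose and 17.8, 13.6 and 19.5% fell. Psmb8, which replaces Psmb5 in the immunoproteasome, had 57.9, 59.3 and 52.7 CPM in scramble, 86.1, 84.6 and 73.0 with siBtg1, 55.2, 52.2 and 49.9 with siBtg2 and 96.5, 89.3 and 93.2 with both siRNAs. Both groups with siBtg1 lay above both without it, with log2 changes from scramble of 0.52 ± 0.06 and 0.72 ± 0.06 (SE, edgeR adjusted p = 4.8e-07 and 3.6e-09). Psmb9, which replaces Psmb6, rose by 0.34 ± 0.07 and 0.32 ± 0.07 in the same groups and fell by 0.23 with siBtg2, a call lost without scramble replicate 1 or 2 or Btg2 knockdown replicate 2 or 3 (edgeR adjusted p 0.059 to 0.0767). Psmb10, which replaces Psmb7, rose with both siRNAs (0.45 ± 0.06) and had a change of 0.13 ± 0.06 with siBtg1 that did not pass. Interferon induces all of these, and leukocytes carry them at high levels. The part of either in these changes was not tested. Of 7 macrophage and leukocyte markers, 0 rose in any knockdown, 1, 4 and 2 fell in the Btg1, Btg2 and double knockdowns, and their sum was 34.6 to 38.9 CPM in scramble, 28.7 to 31.4 with siBtg1, 24.6 to 26.1 with siBtg2 and 28.5 to 29.7 with both siRNAs. None of these markers was at 0 in all libraries.

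All 5 activator and inhibitor genes rose with both siRNAs, beside 19.4% of all tested genes. Psme2 and Psme1, which form an interferon-induced activator ring, rose by 0.50 ± 0.07 and 0.24 ± 0.04, and Psme2 also rose with siBtg1 (0.35 ± 0.07, log2 ± SE). Psme3 and Psme4, nuclear activators, rose by 0.13 ± 0.04 and 0.17 ± 0.05, and the inhibitor gene Psmf1 by 0.19 ± 0.05. The Btg1 knockdown gave 3 rises (Psme2, Psme3, Psmf1) and the Btg2 knockdown 1 (Psme4, 0.18 ± 0.05), beside 18.7 and 16.4% of all tested genes. Psme4 lost its call without scramble replicate 2 in the double and Btg2 knockdowns (edgeR adjusted p = 0.069 and 0.0649). Psme3 lost its call with both siRNAs without scramble replicate 1 or double knockdown replicate 2 and with siBtg1 without scramble replicate 1 or Btg1 knockdown replicate 3 (edgeR adjusted p 0.0612 to 0.117), the latter also by limma on both TPM scales (adjusted p = 0.0531 and 0.0529). Psmf1 lost its call with siBtg1 without Btg1 knockdown replicate 2 (edgeR adjusted p = 0.061).

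Genes that build or feed the proteasome showed no single direction. Of 4 core assembly genes in the table, Psmg1 fell with siBtg1 (-0.19 ± 0.05) and narrowly with both siRNAs (-0.13 ± 0.05, edgeR adjusted p = 0.0457). The second of these calls ended, among other alternatives, without any 1 of the 6 libraries (edgeR adjusted p 0.0541 to 0.182), and Psmg2, Psmg4 and Pomp were called nowhere against scramble. Among 8 associated factors, the deubiquitinase gene Usp14 rose in all knockdowns (0.23 ± 0.05, 0.17 ± 0.05 and 0.32 ± 0.05 in the Btg1, Btg2 and double knockdowns), and Uchl5, another deubiquitinase, fell with siBtg1 (-0.24 ± 0.07). The Usp14 call with siBtg2 ended without scramble replicate 2 (edgeR adjusted p = 0.0649). Uba1, the main ubiquitin-activating enzyme, rose from 389 ± 0.358 CPM to 469 ± 2.83, 446 ± 6.28 and 506 ± 13.5 in the Btg1, Btg2 and double knockdowns (SD, n = 3 each). Uba6, the alternative activating enzyme, fell in the Btg1 and double knockdowns (-0.30 ± 0.06 and -0.29 ± 0.06). Of 15 tested genes of the p97 segregase and ubiquitin shuttles, 4 rose and 2 fell, 2 rose and 0 fell, and 5 rose and 2 fell in the Btg1, Btg2 and double knockdowns. In that order, 18.7, 16.4 and 19.4% of all tested genes rose and 17.8, 13.6 and 19.5% fell. Nploc4, a p97 cofactor, rose by 0.21 ± 0.04 with siBtg1 and 0.22 ± 0.04 with both siRNAs, and the shuttle gene Rad23b fell with siBtg1 (-0.18 ± 0.03) and rose with siBtg2 (0.18 ± 0.03).

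Of 13 muscle ubiquitin ligase genes, 5 rose and 3 fell, 6 rose and 1 fell, and 4 rose and 1 fell in the Btg1, Btg2 and double knockdowns. Fbxo32, the atrogin ligase of muscle atrophy, had 26.7, 25.0 and 25.3 CPM in scramble, 16.6, 13.4 and 13.6 with siBtg1, 34.3, 36.0 and 30.8 with siBtg2 and 18.2, 14.8 and 15.8 with both siRNAs. It fell with siBtg1 alone or combined (-0.81 ± 0.09 and -0.66 ± 0.09) and rose with siBtg2 alone (0.39 ± 0.08, log2 ± SE). Asb2 and Trim55 rose in the Btg1 and double knockdowns, Asb2 by 0.53 ± 0.04 and 0.47 ± 0.04 and Trim55 by 0.43 ± 0.04 and 0.40 ± 0.04. Of 15 cytosolic chaperone genes 3 rose and 2 fell, 5 rose and 0 fell, and 4 rose and 1 fell in the same order. The ligase and chaperone counts stand beside 18.7, 16.4 and 19.4% of all tested genes that rose and 17.8, 13.6 and 19.5% that fell. Hspa8 and Dnaja1 rose with both siRNAs by 0.25 ± 0.05 and 0.28 ± 0.05. Hspb1 rose in the Btg1, Btg2 and double knockdowns (0.16 ± 0.05, 0.30 ± 0.05 and 0.15 ± 0.05), the first and last lost in 4 and 3 alternatives. Hspb8 fell with both siRNAs (-0.16 ± 0.04) and with siBtg1 (-0.11 ± 0.04, lost in 10 alternatives).

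Of the 31 members with a RefSeq window, 4 share a start region with a gene of the table read in the opposite direction and starting within 1000 bases. Psmc5 pairs with Ftsj3, Psma2 with Mrpl32, Psmd10 with Atg4a and Psmd13 with Sirt3. In the double knockdown Psmc5 and Ftsj3 both rose (0.12 ± 0.04 and 0.17 ± 0.05, the latter lost without scramble replicate 1, edgeR adjusted p = 0.0501). In the Btg1 knockdown Psmd13 and Sirt3 both fell (-0.10 ± 0.04 and -0.32 ± 0.08). Sirt3 was also called lower with both siRNAs (-0.27) and with siBtg2 (-0.21), where Psmd13 was at -0.06 in each and was not called. These 2 Sirt3 calls were lost without double knockdown replicate 2 and in 8 alternatives, respectively. With siBtg1, Atg4a fell (-0.44 ± 0.10) where Psmd10 was at -0.06 ± 0.13 (log2 ± SE). With both siRNAs Atg4a was at -0.24 ± 0.10 and Psmd10 at -0.31 ± 0.13. Neither of these passed (edgeR adjusted p = 0.0501 and 0.0554). Psma2 and Mrpl32 were not called against scramble. Gene spans of 4 members overlap another gene of the table in the current annotation (Psmb1 with Tbp, Psmd1 with Htr2b, Psmc6 with Styx and Psma8 with Ss18), and since the strand setting of the counts is not given, reads in such overlaps cannot be assigned with certainty.

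Markers of other cells moved with the groups. Of 9 fibroblast markers, 7, 5 and 8 fell and 0 rose in the Btg1, Btg2 and double knockdowns, and their sum was 15340 to 15902 CPM in scramble, 12425 to 14729, 15266 to 16144 and 12497 to 13575 in the same order. Endothelial markers fell in 2, 3 and 6 of 8 and rose in 1, 0 and 1, and summed to 104 to 108, 84.7 to 95.0, 90.9 to 95.3 and 70.0 to 77.7 CPM in scramble and the Btg1, Btg2 and double knockdowns. Cardiomyocyte markers rose in 3, 4 and 1 of 9 and fell in 3, 0 and 2, and smooth muscle markers rose in 2, 1 and 3 of 5 and fell in 1, 1 and 1. All marker counts stand beside 18.7, 16.4 and 19.4% of all tested genes that rose and 17.8, 13.6 and 19.5% that fell. None of these markers was at 0 in all libraries. Their part in the small changes of the subunit genes was not tested.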

How the data were processed

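Per the submitters' processing notes, the tools were featureCounts, STAR, cutadapt, Trim Galore and FastQC, and rn5 was the rat build. Versions, annotation, strand setting and the handling of reads that fit several genes: not given in the sources used here. Per the labels' protocols, RNA was amplified before library preparation and read in pairs, so counts are not independent molecules. The authors deposited raw counts for 17419 gene symbols in 12 libraries, and TPM with 1 decimal.

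Sample titles gave the groups. Differences were tested on the deposited counts by edgeR 4.0.16 (quasi-likelihood F test, R 4.3.3). The model held a mean for each group over the 12 libraries together, leaving 8 residual degrees of freedom, after TMM scaling (0.971 to 1.02) and filterByExpr, which left 12535 genes. Within each of the 7 comparisons p-values received Benjamini-Hochberg adjustment across these genes, with calls at 0.05. A standard error was obtained by dividing the log2 change by the root of F. Other settings tried were DESeq2 1.42.0; RLE scaling or none beyond library size; the filter dropped, or set to 1 CPM in at least 6 libraries; a fit of the compared groups by themselves; a block for replicate number; limma 3.58.1 on TPM in log2 with a pseudocount of 1 or 0.1; and omission of every library in turn. The edgeR step was tested on simulated data for the double knockdown against scramble (12443 genes): of 65 genes given a 2-fold change it found 61, of 67 given 1.5-fold it found 54, and of 67 given 1.2-fold it found 37; among its 165 calls 13 were false.

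Members and lists were chosen with earlier results of these data known. Named genes were the targets, the peptidase and chaperone subunits, up to 8 rises and 8 falls per comparison, the extremes of level in each class, the immunoproteasome, activator and transcriptional control genes, up to 4 genes of each other related list by smallest p, and divergent partners. All 36 symbols matched RefSeq (GRCr8); because the counts use rn5, its coordinates are given only for the printed windows. No libraries of a group were identical (chi-square per degree of freedom 4.07 to 25.7).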

Additional observations from a re-analysis of the deposited data

Results flagged for a closer look

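In 4 subunit genes the effect of siBtg2 differed with and without siBtg1 by the edgeR interaction test. The differences on the log2 scale were 0.17 for Psmd4, 0.16 for Psmd7, 0.15 for Psmc2 and 0.15 for Psmb7, with the double knockdown above the sum of the single effects in each. Of all tested genes 4.99% lay above the sum and 10.1% below it. Btg2 itself changed by -0.70 with siBtg2 against scramble and by -1.35 with both siRNAs against the Btg1 knockdown (log2). The bearing of this unequal fall on the 4 genes was not tested. The count of 4 fell to 0 without scramble replicate 1 or without Btg2 knockdown replicate 1 or 3. In the 20 alternatives run, the call was lost in 4 for Psmd4, 11 for Psmd7, 13 for Psmc2 and 12 for Psmb7.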

How the results depend on the processing

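No called change of a subunit gene reversed in any alternative, and 30 of 66 calls held in all that were run. Counts that moved by more than 1.5 times are given here, and the cause was not tested. For the double knockdown against scramble the 2 lower genes were 1 with RLE scaling, DESeq2 or only the groups compared and 0 with limma on either TPM scale. For the Btg1 knockdown the 0 higher genes were 2 with only the groups compared, and the 7 lower were 4 with no filter. For the Btg2 knockdown the 1 higher gene was 2 with RLE scaling, DESeq2 or the stricter filter, 3 with only the groups compared, and 0 with library size alone, no filter, the replicate block or limma. Double against Btg1 knockdown gave 9 higher, and double against Btg2 knockdown 6 higher, with only the groups compared. Btg1 against Btg2 knockdown gave 9 higher with library size alone. The interaction gave 13 higher with library size alone, 7 with DESeq2, 1 with no filter and 2 with the replicate block.

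Leaving out each library gave, in higher and then lower genes, 8 to 9 and 1 to 3 for the double knockdown, 0 to 1 and 3 to 6 for the Btg1 knockdown and 0 to 0 and 4 to 6 for the Btg2 knockdown against scramble. It gave 8 to 16 and 0 to 1 for double against Btg1, 4 to 11 and 1 to 1 for double against Btg2, 4 to 5 and 4 to 6 for Btg1 against Btg2, and 0 to 6 and 0 to 0 for the interaction. Replicate numbers did not pair the samples: same-number correlations of deviations ran from -0.092 to 0.0599 in 18 pairs, and 5 of 12 libraries correlated best with their own number. In the simulation over genes of all levels, 37 of 67 changes of 1.2-fold were recovered. That rate does not carry over to the subunit genes. The simulation gave 165 calls, where the data gave 4873 for the same comparison. Subunit genes also varied less between replicates (median coefficient of variation 2.33%, against 5.31% over all tested genes), a contrast not matched for level.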
